A study of Mus musculus with 6 samples.

Results

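The genes described here are the enzymes and the transporter that make phosphatidylcholine, phosphatidylserine and phosphatidylethanolamine by routes that do not pass through Pcyt2. They are the choline transporter Slc44a1, the choline kinases Chka and Chkb, the CDP-choline forming enzymes Pcyt1a and Pcyt1b, the cholinephosphotransferase Chpt1, the methyltransferase Pemt, the phosphatidylserine synthases Ptdss1 and Ptdss2, and the decarboxylase Pisd. The rule takes them by gene name and uses no measured value, though the list was drawn up with earlier results of these data known. Each of the 10 had 1 probe set annotated to it alone among the 18820 genes of the table. Affymetrix arrays measured liver RNA of 2-month-old C57BL6 mice: 4 mice of genotype Pcyt2+/- (numbered 1 to 4) and 2 that were wild type (numbered 3 and 4), with 1 array each. In the titles the mutant animals are named knock-out, but their genotype is given as Pcyt2+/-, the name used here. The sources used here give neither the sex of the animals, nor when they last ate, nor how the Pcyt2 allele was made. The comparison asked whether the other phospholipid routes moved in livers with reduced Pcyt2.

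Phosphatidylcholine and phosphatidylethanolamine are the most abundant phospholipids of liver membranes. The Kennedy pathway builds each of them in parallel branches: choline or ethanolamine is phosphorylated, activated with CTP to the CDP form, and transferred to diacylglycerol. Pcyt2 carries out the CTP step of the ethanolamine branch, and Pcyt1a is its counterpart in the choline branch. The liver can also methylate phosphatidylethanolamine to phosphatidylcholine through Pemt. In mitochondria, Pisd makes phosphatidylethanolamine from phosphatidylserine, which Ptdss1 and Ptdss2 make by swapping the head group of existing phospholipids for serine.

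Start regions of 3 of these genes are shown because Pemt and Chpt1 had the largest differences and Pcyt1a is the regulated step of the choline branch. The sequences are from RefSeq on GRCm38.p6, run 5′ to 3′ on the gene's strand, and cover 250 bases before to 50 bases after an annotated start. Capitals mark GGGCGG or its reverse complement CCGCCC, the core of the GC box. The Pemt windows are chr11:60040139-60040438 and chr11:60036956-60037255, both on the minus strand, the Chpt1 window is chr10:88503921-88504220 on the minus strand, and the Pcyt1a window, the first of 3 in the table, is chr16:32430671-32430970 on the plus strand.
Pemt, first start: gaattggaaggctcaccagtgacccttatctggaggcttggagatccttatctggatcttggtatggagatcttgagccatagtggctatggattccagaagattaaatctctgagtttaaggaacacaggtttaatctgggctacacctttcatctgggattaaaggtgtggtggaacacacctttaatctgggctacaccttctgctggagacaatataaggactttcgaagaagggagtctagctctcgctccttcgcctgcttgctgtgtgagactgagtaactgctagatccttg
Pemt, second start: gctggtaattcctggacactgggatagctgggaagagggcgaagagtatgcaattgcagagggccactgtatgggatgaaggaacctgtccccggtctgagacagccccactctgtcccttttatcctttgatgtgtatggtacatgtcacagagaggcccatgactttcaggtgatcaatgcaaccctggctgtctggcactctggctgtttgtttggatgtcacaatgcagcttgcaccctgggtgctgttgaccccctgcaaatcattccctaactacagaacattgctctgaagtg
Chpt1: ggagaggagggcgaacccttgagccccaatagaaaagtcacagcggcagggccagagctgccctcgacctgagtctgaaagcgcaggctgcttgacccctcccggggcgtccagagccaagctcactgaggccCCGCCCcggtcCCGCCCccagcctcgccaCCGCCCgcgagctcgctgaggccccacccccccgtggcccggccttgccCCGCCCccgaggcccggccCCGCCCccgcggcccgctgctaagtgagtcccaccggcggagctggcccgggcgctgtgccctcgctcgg
Pcyt1a, first start: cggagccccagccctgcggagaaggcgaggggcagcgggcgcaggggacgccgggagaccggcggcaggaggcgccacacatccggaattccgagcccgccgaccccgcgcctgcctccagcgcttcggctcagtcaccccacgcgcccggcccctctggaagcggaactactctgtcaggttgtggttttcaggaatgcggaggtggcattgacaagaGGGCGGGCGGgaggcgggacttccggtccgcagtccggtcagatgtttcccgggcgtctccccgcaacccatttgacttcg

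The Chpt1 window held 5 GC boxes and 75.3% G or C. The first Pcyt1a window held 2 overlapping ones and 69.7% G or C. Of the other Pcyt1a windows, not printed, 1 overlaps it and held the same 2 (65.7% G or C), and the third held 0 (63.3%). Neither Pemt window held a GC box, and their G or C content was 46.3% and 51.7%, against a median of 52.7% over all windows of the table. Of the 10 genes, 9 had an entry, with 15 windows, several of which overlap. On either strand GGGCGG stood in 9 of the 15 windows (60%), against 35.7% of 32851 windows of all genes. CCAAT was found in 7 of the 15 (46.7%, against 37.4% of all), TATAAA in 1 (6.67%, against 13.6%) and CACGTG in 0 (7.15% of all). These matches describe letters in the window and carry no measurement of binding.

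The signals of these genes lay close together and low on the array. Of all 28996 probe sets, 94.4% had a mean log2 signal between 4 and 5, and every array's median was near 4.40. Of the 10 genes, only Pemt had a mean above 5 and only Pemt and Chpt1 one above 4.6. Array background adds to every signal and narrows log2 differences of dim genes, so the intervals below are those of the deposited signal and not of RNA amount. Nearly all deposited values (99.95%) stood on a grid with steps of 0.00098. In whole liver, fewer cells of a type and less RNA per cell cannot be told apart. The hepatocyte markers Alb and Ttr had mean signals of 12.27 ± 0.051 and 11.00 ± 0.081 in Pcyt2+/- livers (SD, n = 4), against 12.32 ± 0.13 and 11.06 ± 0.21 in wild type livers (SD, n = 2). The 8 measured hepatocyte markers all had a lower mean in Pcyt2+/- livers, with differences from -0.036 (Apoa1) to -1.13 (Tat) and a median of -0.17. Their summed log2 signal was 76.8 to 78.1 in Pcyt2+/- livers, against 79.7 to 80.5 in wild type livers. Taken singly, the groups did not overlap for 3 of the 8, Tat, Cps1 and Pck1, against 12.8% of all genes. They overlapped for Alb, Ttr, Apoa1, Apoa2 and Fabp1. Of 43 measured markers of other cell types, 1 had an unadjusted p under 0.05 by limma, against 5.3% of all genes. Their differences ran from -0.046 to 0.066. Only 1 of the 43 had a mean above 5, so the narrowing of dim signals limits what this range can show.

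Pcyt2 itself stood lower on every Pcyt2+/- array, at 4.638, 4.657, 4.669 and 4.604, against 4.887 and 4.796 in wild type livers. Its log2 difference was -0.20 with a 95% interval of -0.27 to -0.13, and limma's adjusted p was 0.264. The mean difference was thus a 12.9% lower deposited signal. The sources used here do not say if its probes fall within the changed stretch of the gene.

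None of the 10 genes passed the test for a difference between the groups. Limma called 0 of them at an adjusted p under 0.05, as it called 0 of all 18820 genes (0%), and their adjusted p-values ran from 0.936 to 0.997. At an unadjusted p under 0.05 there were also 0 of 10, against 5.3% of all genes. The ranges of the groups overlapped for each of the 10, and they did not overlap for 12.8% of all genes. With only 10 genes this does not set these routes apart. Of the 10 genes, 6 had a lower and 4 a higher mean in Pcyt2+/- livers, and 51.9% of all genes had a lower one. The median difference was -0.0034 over the 10 genes and -0.00073 over all genes. With 4 against 2 arrays an exact permutation test over 15 splits cannot give a p below 0.0667.

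**Figure D1:**
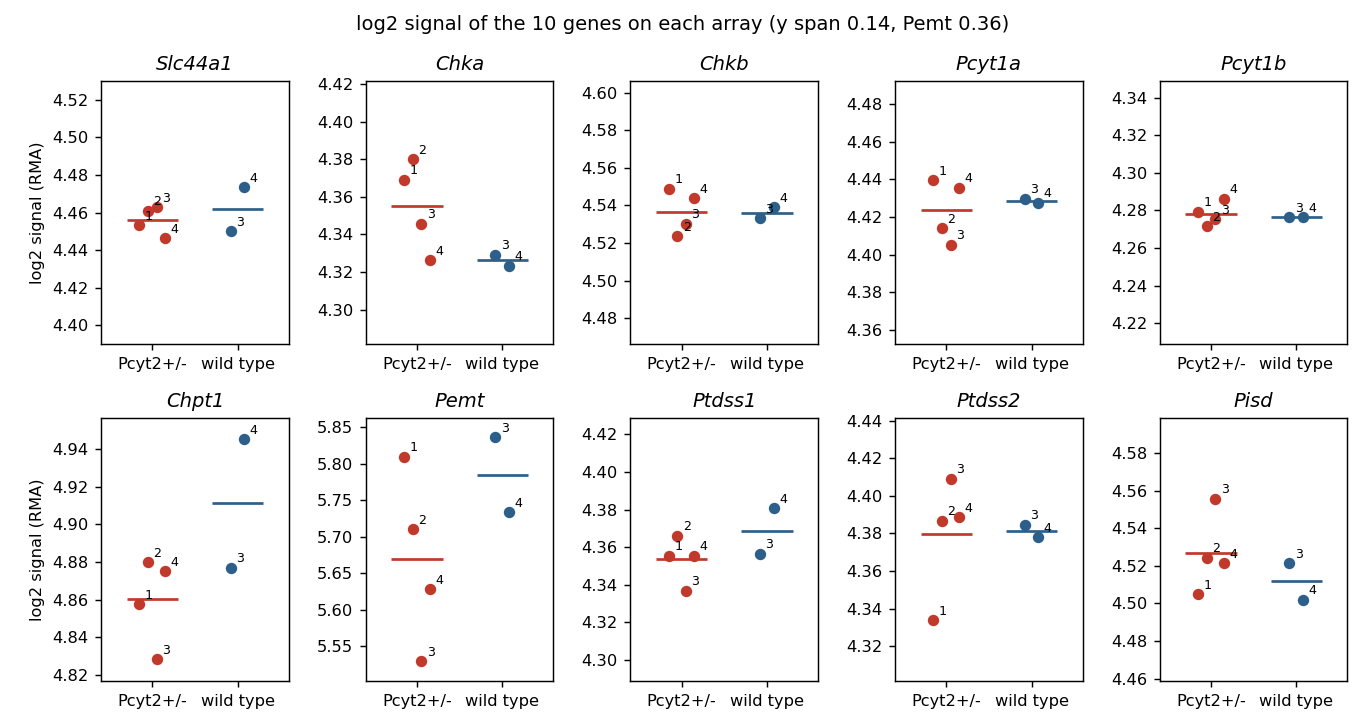
Deposited log2 signal (RMA) of each of the 10 genes, with a point for each array labelled by its replicate number, Pcyt2+/- (red, n = 4) left of wild type (blue, n = 2), and a line at each group mean. Each panel spans 0.14 on the log2 scale except Pemt, which spans 0.36. The groups overlap in every panel, and Pemt has the widest spread, with Pcyt2+/- values from 5.529 to 5.810.

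The choline branch opens with the entry of choline into the cell. Slc44a1, a choline transporter of the plasma membrane and mitochondria, had signals of 4.453, 4.461, 4.463 and 4.446 in Pcyt2+/- livers, against 4.450 and 4.474 in wild type livers. The Pcyt2+/- values lay within the span of the wild type arrays except the one of replicate 4, just under it. The difference was -0.0061 with a 95% interval of -0.033 to 0.021 (limma, adjusted p = 0.995).

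Choline kinases trap choline inside the cell as phosphocholine and can also act on ethanolamine. Chka, the alpha enzyme, had 4.369, 4.380, 4.346 and 4.326 in Pcyt2+/- livers, against 4.329 and 4.323 in wild type livers. Replicates 1, 2 and 3 lay above both wild type arrays and replicate 4 lay between them. Its difference of 0.029 was the highest of the 10, with an interval of -0.010 to 0.068 (limma, adjusted p = 0.949), and a two-sided exact permutation test gave p = 0.20. In the deposited signal that is 2.03% higher, with an interval of -0.703% to 4.85%.

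Chkb, the beta enzyme, had 4.549, 4.523, 4.530 and 4.544 in Pcyt2+/- livers, against 4.533 and 4.539 in wild type livers. Its Pcyt2+/- arrays spread to both sides of the wild type ones. The group means differed by 0.00049, which is less than a step of the grid, with an interval of -0.026 to 0.027 (limma, adjusted p = 0.997). Chkb and Ptdss1 each had a further probe set annotated to several genes, which was not used.

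Pcyt1a makes CDP-choline and is the regulated step of the branch, the same reaction type that Pcyt2 carries out on ethanolamine. Its signals were 4.439, 4.414, 4.405 and 4.436 in Pcyt2+/- livers, against 4.430 and 4.428 in wild type livers. Replicates 1 and 4 lay above both wild type arrays, and replicates 2 and 3 lay below them. The group means were 4.42 ± 0.017 (SD, n = 4) in Pcyt2+/- livers and 4.43 ± 0.0014 (SD, n = 2) in wild type livers. Their difference was -0.0051, with an interval of -0.036 to 0.026 (limma, adjusted p = 0.996) or -2.47% to 1.81% in the deposited signal.

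Pcyt1b, the beta isoform of that enzyme, is known mainly from brain and gonads. It had 4.279, 4.271, 4.275 and 4.286 in Pcyt2+/- livers, against 4.276 on both wild type arrays. Its values ran from 4.271 to 4.286 over all arrays, and its mean stood at percentile 16.9 of the gene means. The difference was 0.0017, with an interval of -0.021 to 0.025 (limma, adjusted p = 0.997).

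Chpt1 transfers phosphocholine to diacylglycerol and so finishes phosphatidylcholine. It had 4.857, 4.880, 4.828 and 4.875 in Pcyt2+/- livers, against 4.877 and 4.945 in wild type livers. Only replicate 2 of the Pcyt2+/- group reached the lower wild type array, and wild type replicate 4 stood above all others. The group means were 4.86 ± 0.023 (SD, n = 4) in Pcyt2+/- livers and 4.91 ± 0.048 (SD, n = 2) in wild type livers. This gave the smallest unadjusted p of the 10 genes, 0.0607, with a difference of -0.051, an interval of -0.11 to 0.0030 and an adjusted p of 0.936 by limma. Without wild type replicate 4 the difference was -0.017, and without wild type replicate 3 it was -0.085.

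Pemt methylates phosphatidylethanolamine to phosphatidylcholine and is the hepatocyte's own source of new choline. It had 5.810, 5.710, 5.529 and 5.628 in Pcyt2+/- livers, against 5.836 and 5.733 in wild type livers. Replicate 1 lay between the wild type arrays, and replicates 2, 3 and 4 lay below both. The group means were 5.67 ± 0.12 (SD, n = 4) in Pcyt2+/- livers and 5.78 ± 0.073 (SD, n = 2) in wild type livers. The difference of -0.12 was the largest of the 10 in size, with an SE of 0.073 and an interval of -0.29 to 0.058 (limma, adjusted p = 0.956). A two-sided exact permutation test gave p = 0.267. In the deposited signal the interval is -18.2% to 4.12%. Of the 792 genes with a mean above 5, 219 had a larger difference than Pemt in either direction. The hepatocyte marker sums given above were also lower on every Pcyt2+/- array than on either wild type array. Of 10 listed markers 8 were measured, and the lowest mean of the 8 was 7.69. Tat, Pck1 and Cps1 had the largest differences (-1.13, -0.72 and -0.56), and only these 3 did not overlap between groups. The part of the markers in the Pemt difference was not tested. With 1 array left out the Pemt difference ran from -0.17 (without wild type replicate 4) to -0.064 (without wild type replicate 3). It was -0.071 after quantile normalization.

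Over the 6 arrays, the genes with a mean above 5 whose signal ran most like that of Pemt were Phb2, a mitochondrial prohibitin (Pearson r of 0.982), Ifitm2, an interferon-induced membrane protein (0.980), and Abat, the GABA aminotransferase (0.966). Of 791 genes compared, 19 had an r above 0.9. These are descriptions over 6 points that share array-wide variation. Phb2 averaged 5.34 ± 0.082 in Pcyt2+/- livers (SD, n = 4) and 5.40 ± 0.026 in wild type livers (SD, n = 2), and Ifitm2 averaged 7.01 ± 0.10 in Pcyt2+/- livers and 7.09 ± 0.073 in wild type livers. Neither these nor Abat passed limma (adjusted p from 0.949 to 0.956).

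The phosphatidylserine route starts with the base-exchange synthases. Ptdss1, which acts on phosphatidylcholine, had 4.355, 4.366, 4.337 and 4.355 in Pcyt2+/- livers, against 4.356 and 4.381 in wild type livers. Replicate 2 lay between the wild type arrays, and the other Pcyt2+/- arrays lay below both. The difference was -0.015 with an interval of -0.045 to 0.015 (limma, adjusted p = 0.956), and it was -0.0029 without wild type replicate 4.

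Ptdss2, which acts on phosphatidylethanolamine, had 4.334, 4.387, 4.409 and 4.389 in Pcyt2+/- livers, against 4.385 and 4.378 in wild type livers. Replicates 2, 3 and 4 lay above both wild type arrays, and replicate 1 lay well below them. The means thus came out close, with a difference of -0.0017 and an interval of -0.051 to 0.047 (limma, adjusted p = 0.997). Without Pcyt2+/- replicate 1 the difference was 0.014.

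Pisd, the mitochondrial decarboxylase, had 4.505, 4.524, 4.556 and 4.521 in Pcyt2+/- livers, against 4.521 and 4.502 in wild type livers. Replicates 2 and 3 lay above both wild type arrays, and replicate 4 equalled the higher of them. The difference was 0.015 with an interval of -0.023 to 0.052 (limma, adjusted p = 0.978). In the deposited signal the interval is -1.55% to 3.70%. The difference was 0.0051 without wild type replicate 4 and 0.0052 without Pcyt2+/- replicate 3.

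**Figure D2:**
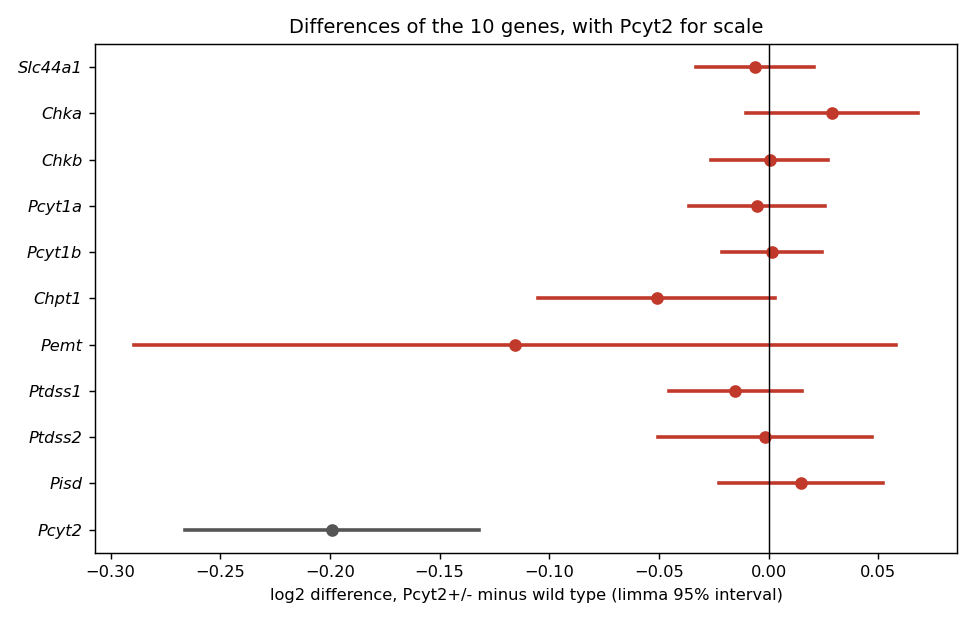
Log2 difference, Pcyt2+/- minus wild type, of each of the 10 genes (red) and of Pcyt2 (grey), with limma's 95% interval as a line (n = 4 and 2). Each of the 10 intervals crosses 0, and the Pcyt2 interval of -0.27 to -0.13 lies below 9 of them and overlaps that of Pemt. Those 9 genes, like 96.4% of all genes, differed by less than 0.06 in size.

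The 10 genes can be set against Pcyt2 on the same array. For 9 of them the interval of the difference lay wholly above that of Pcyt2, Pemt being the exception. The same 9 differed by less than 0.06 in size, as did 96.4% of all genes, so this does not set these routes apart. When each array's Pcyt2 value was subtracted, the same 9 were higher on every Pcyt2+/- array than on either wild type array. That holds for 97.2% of the other 18819 genes, so it reflects the low Pcyt2 signal and is no trait of these routes. For Pemt the subtracted value was 0.084 higher in Pcyt2+/- livers with overlapping groups (two-sided exact permutation test, p = 0.467).

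Replicate 3 of the Pcyt2+/- group held an end value for several of the genes. It had the lowest signal of all 6 arrays for Pcyt1a, Chpt1, Pemt and Ptdss1, and the highest for Ptdss2 and Pisd. The mean deviation of the 10 genes was -0.021 on that array, against -0.0081 to 0.0063 on the other Pcyt2+/- arrays and 0.0092 to 0.011 on the wild type arrays. It also had the fewest probe sets above 5, 1557, against 1582 to 1608 on the other Pcyt2+/- arrays and 1624 to 1637 on the wild type arrays. The part of this array in the differences can be read from the fits without it: -0.069 for Pemt, -0.040 for Chpt1 and 0.00098 for Pcyt1a.

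Subtracting each array's median signal on the linear scale is a way to allow for background. It was done for genes with a mean above 4.6, which include Chpt1, Pemt and Pcyt2. On that scale Chpt1 had log2 values of 2.98, 3.06, 2.86 and 3.04 in Pcyt2+/- livers, against 3.04 and 3.28 in wild type livers. Pemt had 5.13, 4.96, 4.65 and 4.82 in Pcyt2+/- livers, against 5.17 and 5.01 in wild type livers. The groups still overlapped for both. Their differences were -0.18 (interval -0.43 to 0.071) and -0.20 (interval -0.52 to 0.13), with adjusted p of 0.709 and 0.788 by limma over 3248 genes. Pcyt2 differed by -0.97 on the same scale, with an interval of -1.32 to -0.63 and an adjusted p of 0.0671. On this scale the intervals of Chpt1 and Pemt do not reach -0.97, while for the other 8 genes the low signal gives no such bound. In Pcyt2+/- livers Pcyt2 signals of 4.604 to 4.669 lay near the subtracted medians of about 4.40. Its -0.97 thus depends strongly on the background taken, and no other was tried. As deposited, the Pemt interval of -0.29 to 0.058 includes the Pcyt2 difference of -0.20, and the Chpt1 interval of -0.11 to 0.0030 does not.

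**Figure D3:**
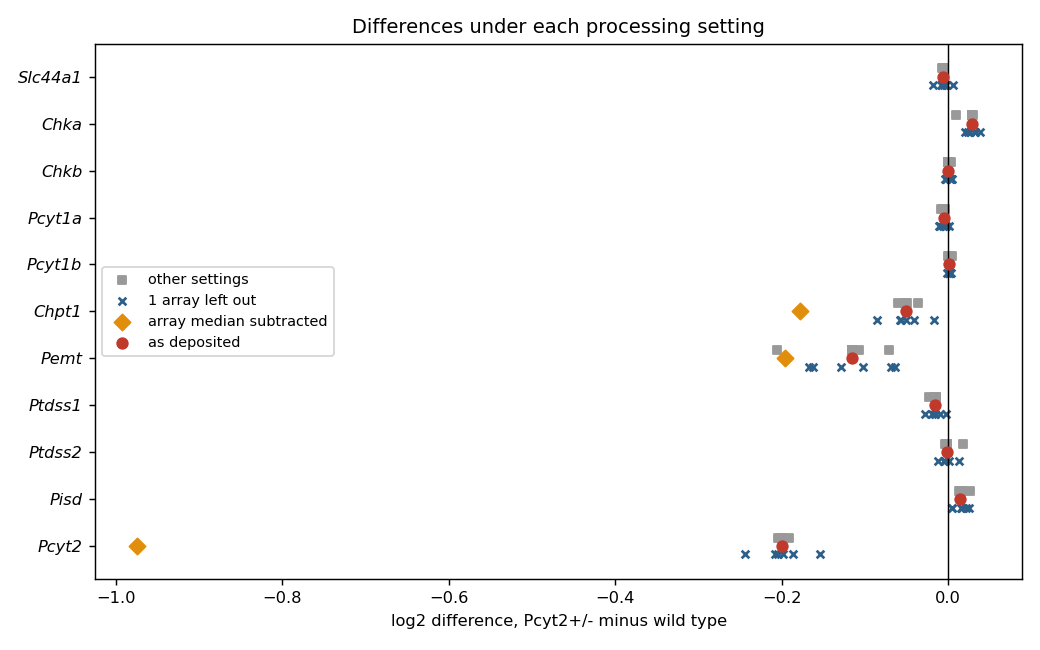
Log2 difference, Pcyt2+/- minus wild type, of the 10 genes and Pcyt2 as deposited (red circles), with 1 array left out (blue crosses), with each array's median subtracted on the linear scale (orange diamonds, only for genes with a mean above 4.6) and under the other settings (grey squares). Chpt1, Pemt and Ptdss1 stay below 0 at every point and Chka and Pisd above it, and Pcyt2 reaches -0.97.

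Genes next to these routes were taken from 8 lists with 95 genes, of which 87 were measured. Limma called 0 of the 87 at an adjusted p under 0.05. At an unadjusted p under 0.05, 15 were lower and 1 was higher in Pcyt2+/- livers, or 17.2% lower, against 3.44% lower and 1.86% higher of all genes. Pcyt2, the mutated gene, is 1 of the 15, and without it 14 of 86 were lower (16.3%). Among the 16 brighter genes (mean above 5) 6 were lower at that level, against 14.6% of all such genes, and among the 70 dimmer ones other than Pcyt2 8, against 2.95%. Groups that do not overlap are named below for some genes, a trait of 12.8% of all genes. The genes named below were picked for the smallest unadjusted p of each list, so that share is no yardstick for them. Gdpd1, Plscr2, Cdipt and Cds1 were also lower on every Pcyt2+/- array than on either wild type array. Lpcat3 and Lpin3 were higher on every Pcyt2+/- array than on either wild type array. The counts above describe lists chosen with earlier results of the same data known.

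Methyl supply for Pemt showed the largest differences of these lists. Pemt uses S-adenosylmethionine, which Mat1a makes, and releases S-adenosylhomocysteine, which Ahcy removes, while Gnmt spends surplus methyl groups on glycine. Mat1a had 9.68, 9.50, 9.19 and 9.12 in Pcyt2+/- livers, against 10.26 and 10.11 in wild type livers, a difference of -0.81 with an SE of 0.16. Ahcy had 7.38, 7.18, 7.07 and 6.96 in Pcyt2+/- livers, against 7.62 and 7.89 in wild type livers, a difference of -0.61. Gnmt had 6.97, 6.95, 7.06 and 6.83 in Pcyt2+/- livers, against 7.18 and 7.17 in wild type livers, a difference of -0.22. For each of the 3 every Pcyt2+/- array lay below both wild type arrays, but none passed (limma, adjusted p = 0.511, 0.511 and 0.662). Of the 7 measured genes 3 were lower and 0 higher by unadjusted p under 0.05. All 3 had a mean above 5, and 14.6% of all such genes were lower at that level. The median difference of the 7 was -0.12, and 6 of them had a lower mean. Gamt went the other way, with a difference of 0.17 and overlapping groups (limma, adjusted p = 0.936). The 8 hepatocyte markers also had lower means in Pcyt2+/- livers, with a median difference of -0.17. Their part in the methyl supply differences was not tested.

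Choline oxidation turns choline into betaine and then glycine. Dmgdh, the dimethylglycine dehydrogenase, had 5.18, 5.16, 5.05 and 5.12 in Pcyt2+/- livers, against 5.21 and 5.22 in wild type livers, a difference of -0.088 (limma, adjusted p = 0.901). Its groups did not overlap. Bhmt, which passes a methyl group from betaine to homocysteine, had 9.41, 8.69, 8.82 and 8.56 in Pcyt2+/- livers, against 9.12 and 9.33 in wild type livers, a difference of -0.35 (limma, adjusted p = 0.955). Pcyt2+/- replicate 1 was the highest of all 6 arrays for Bhmt and the others lay below both wild type arrays. Bhmt2, its close relative, differed by -0.063. Of 5 measured genes 1 was lower and 0 higher by unadjusted p under 0.05.

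Other choline transporters and candidates for choline entry, 8 measured genes, had none with an unadjusted limma p under 0.05 (0 of 8). Their differences ran from -0.019 for Slc44a3 to 0.013 for Slc5a7, the high-affinity choline transporter of cholinergic neurons, and Slc44a4 differed by 0.0046. In the CDP-ethanolamine list 2 of 6 measured genes were lower at that level, Pcyt2 and Cept1. Cept1, which completes both phosphatidylcholine and phosphatidylethanolamine, had 4.512, 4.518, 4.524 and 4.511 in Pcyt2+/- livers, against 4.561 and 4.534 in wild type livers, a difference of -0.031 (limma, adjusted p = 0.895). Its groups did not overlap. Etnppl, which breaks down phosphoethanolamine, differed by -0.054 (limma, adjusted p = 0.955).

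Among 20 measured genes of phosphatidylcholine turnover and use, 2 were lower and 0 higher by unadjusted p under 0.05. Pctp, the phosphatidylcholine transfer protein, had 4.859, 4.828, 4.695 and 4.788 in Pcyt2+/- livers, against 4.933 and 4.866 in wild type livers, a difference of -0.11. Gde1, a glycerophosphodiester phosphodiesterase, differed by -0.073 and Abcb4, which carries phosphatidylcholine into bile, by -0.13. Pctp and Gde1 did not overlap between groups, and Abcb4 did. None of the 3 passed (limma, adjusted p from 0.817 to 0.936).

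Phosphatidylserine transfer and turnover held the 1 gene of these lists that was higher at an unadjusted p under 0.05. Prelid1, part of the machinery that moves phospholipids between the mitochondrial membranes, had 5.721, 5.700, 5.643 and 5.680 in Pcyt2+/- livers, against 5.506 and 5.653 in wild type livers. The 2 groups overlapped through Pcyt2+/- replicate 3 and wild type replicate 4, and the difference was 0.11 (limma, adjusted p = 0.913). Serinc3, of a membrane protein family linked to serine, differed by -0.22, and Plscr2, a scramblase family member, by -0.047 (limma, adjusted p = 0.913 and 0.817). Of 19 measured genes 2 were lower at that level.

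Diacylglycerol is the shared acceptor of both Kennedy branches. In its supply list 3 of 15 measured genes were lower and 0 higher by unadjusted p under 0.05: Lpin2, a phosphatidate phosphatase (-0.12), Agpat3, an acyltransferase (-0.12), and Gpat4, the glycerol-3-phosphate acyltransferase of the endoplasmic reticulum (-0.052). Their groups did not overlap, and their adjusted p by limma ran from 0.662 to 0.936. In the CDP-diacylglycerol route, which leads to phosphatidylinositol and cardiolipin, 2 of 7 were lower and 0 higher: Cdipt, the phosphatidylinositol synthase (-0.037), and Ptpmt1, a phosphatase of cardiolipin synthesis (-0.049). Cds1, a CDP-diacylglycerol synthase, differed by -0.033, and none of these 3 passed limma (adjusted p from 0.872 to 0.936).

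**Figure D4:**
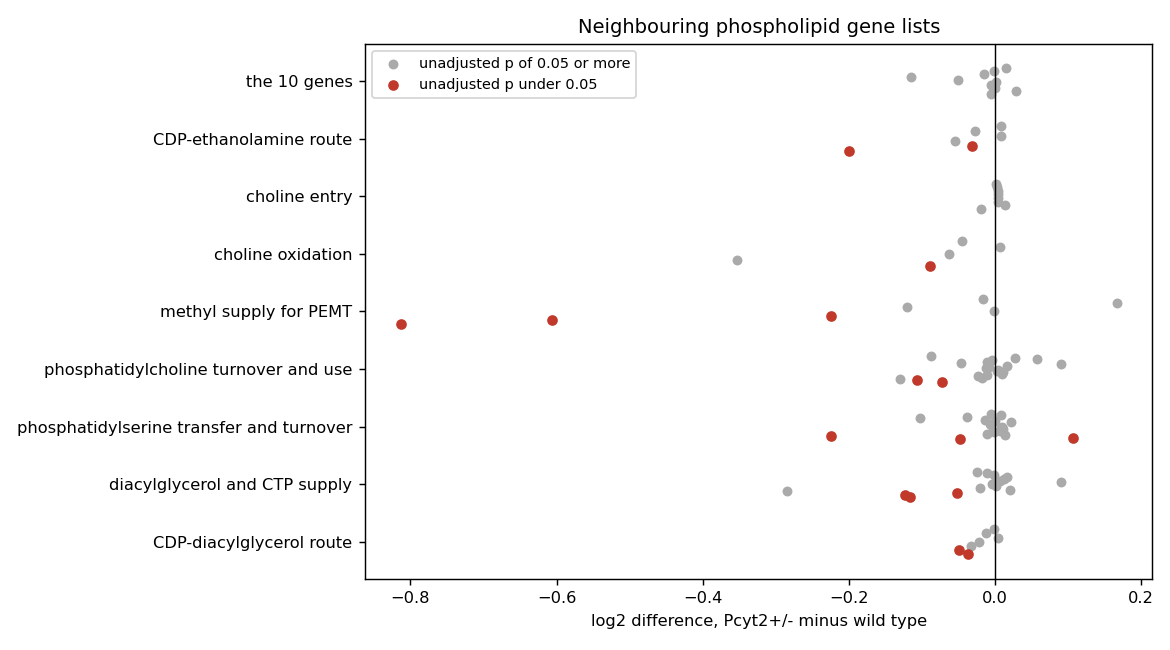
Log2 difference, Pcyt2+/- minus wild type, of the 10 genes (top) and of the 87 measured genes of 8 neighbouring lists, a point for each gene, with red for an unadjusted limma p under 0.05. None of the 10 is red, and the points farthest to the left are Mat1a (-0.81) and Ahcy (-0.61) in the methyl supply list.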

How the data were processed

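Liver RNA was hybridised to Affymetrix arrays. The deposited table holds log2 values, 1 per probe set and array. The authors computed them with RMA, per the submitters' processing notes, and the sources used here name neither a version nor a build. Probe sets were named from the platform annotation: 21218 had 1 symbol, 1881 several and 5897 were unnamed here. The brightest probe set stood for each of 18820 genes. Differences (Pcyt2+/- minus wild type) were fitted with limma 3.58.1 under R 4.3.3 (lmFit, eBayes, two-sided, no covariates, 4 against 2 arrays) with Benjamini-Hochberg adjustment over all genes at 0.05. Exact permutation tests used 15 splits. The named genes are the 10 members, Pcyt2, from each neighbouring list the 3 measured genes with the smallest unadjusted p, and the 3 genes with a mean above 5 most correlated with Pemt. Some further list genes are named for groups that do not overlap or for a difference in the other direction. Members and lists were chosen with earlier results of these data known. The steps were tested on simulated data. Start region sequences and their coordinates are RefSeq's (GRCm38.p6). Python 3.11.15, numpy 2.4.6, pandas 2.3.3 and matplotlib 3.10.9 served for motifs and figures. Arrays have no sequencing depth, and their number limits the precision. Other settings covered filters, normalization, background, variance priors, array weights, a replicate block and each array left out.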

Additional observations from a re-analysis of the deposited data

How the results depend on the processing

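Limma called 0 of the 10 genes under every setting run (only those that entered it), with adjusted p of 0.545 or more, and 134 of 143 values of single genes kept their sign. The 9 that turned belong to 5 genes with differences near 0. Using every probe set, the mean of probe sets, another variance prior, no moderation or only brighter genes repeats each difference exactly. Signs could not turn under those settings. With 1 array left out, Pcyt1a ran from -0.010 to 0.00098, Pcyt1b from -0.00098 to 0.0039, Chkb from -0.0036 to 0.0049, Ptdss2 from -0.012 to 0.014 and Slc44a1 from -0.018 to 0.0056. The replicate block turned Ptdss2 to 0.018, moved Pemt to -0.21, Chka to 0.0098 and Pisd to 0.027, and gave 2 calls among all genes. Pcyt2+/- replicates 1 and 2 share their number with no wild type array, so this fit compares only the arrays numbered 3 and 4. The labels do not say that the numbers mark shared litters or days. Deviations of same-numbered arrays correlated at 0.15 (replicate 3) and 0.073 (replicate 4). Pcyt2+/- replicate 1 and wild type replicate 4, which differ in number, correlated at 0.19. Deviations of the 2 wild type arrays mirror each other, so these correlations cannot tell whether the numbers mark pairs. Over all genes there were 0 to 9 calls with 1 array left out, 9 with a trended and robust prior, 3 among genes with a mean above 5 and 3 with the array median subtracted. The median over the 10 genes ran from -0.0044 to -0.00061 with 1 array left out. It was -0.12 among genes with a mean above 5, where Pemt alone entered and Pcyt2 did not, and -0.19 with the array median subtracted, where only Chpt1 and Pemt entered. Pcyt2 ran from -0.24 to -0.15 with 1 array left out. Fits with 1 wild type array assume that it varies like the others. The mean of a gene's probe sets gave the same differences, as each of the 10 genes has 1. Signal over background limits what could be seen for the 8 genes with a mean of 4.6 or less.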
